A study of Mus musculus with 4 samples.

Results

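The spots described here are positions on Visium slides of mouse olfactory bulb that carried transcripts of the olfactory mucosa genes Bpifb4, Bpifb6 and Gpx6. Spots were chosen by these values: a spot had to hold at least 500 UMIs in all and at least 10 UMIs summed over the 3 genes. The rule found 102 of 4616 kept spots, 2.21%, and they are called BPI-fold spots below. A Visium spot is a small area of tissue over barcoded capture probes. It can hold several cells of different types, and a UMI (unique molecular identifier) stands for 1 captured transcript molecule.

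The study compared a single control with a single mutant mouse, whose fresh-frozen bulbs were cut onto 4 capture areas. The control mouse gave a pair of serial sections on its first area and a single slice on its second, and the mutant mouse gave serial sections on both. In the mutant, VEGF was blocked at E13.5 by a transgenic soluble VEGFR1 under the brain-specific tetracycline-regulated driver camk2a-tTa, and the labels attach this protocol, with an age of 5 months, to every sample. The deposited matrix pools all spots and separates them only by the numbers 1 to 4 at the ends of the barcodes, which match no label. The 4 libraries are therefore given by number, no library is assigned to a mouse, control and mutant are not compared, and libraries are not treated as replicates. All intervals are exact 95% intervals that cover counting error only, and no p-values are given.

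The olfactory mucosa lines the back of the nasal cavity and lies across a perforated bone from the olfactory bulb. It holds the olfactory sensory neurons, whose axons cross that bone and form the outer layer of the bulb, the supporting sustentacular cells, and the Bowman glands that secrete the mucus over the epithelium. Bpifb4 and Bpifb6 belong to the family of BPI-fold proteins, secreted relatives of the bactericidal/permeability-increasing protein that bind lipids. Gpx6 is a glutathione peroxidase known from olfactory epithelium and Bowman glands, Scgb1c1 is a secretoglobin of olfactory mucus, and Ces1a is a carboxylesterase.

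The start regions of 4 genes are shown because Bpifb6, Bpifb4 and Gpx6 chose the spots and Scgb1c1 was the most abundant of the 20 genes with the highest ratios besides them. Each is the RefSeq sequence of the 250 bases before the annotated start (build GRCm38.p6), 5′ to 3′ on the gene's strand, the plus strand in each case, matched to the files by symbol. Capitals mark matches to TATAAA (the TATA box), CCAAT (the CCAAT box) or CCCNNGGG (the core of the Olf/Ebf site), each searched on both strands, and no 2 marked matches overlap.
Bpifb6 at chr2:153900138-153900387: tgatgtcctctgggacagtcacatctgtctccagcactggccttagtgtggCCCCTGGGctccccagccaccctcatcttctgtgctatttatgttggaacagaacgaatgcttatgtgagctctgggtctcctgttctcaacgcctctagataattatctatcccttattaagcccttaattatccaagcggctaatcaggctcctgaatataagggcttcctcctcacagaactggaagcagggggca
Bpifb4 at chr2:153940612-153940861: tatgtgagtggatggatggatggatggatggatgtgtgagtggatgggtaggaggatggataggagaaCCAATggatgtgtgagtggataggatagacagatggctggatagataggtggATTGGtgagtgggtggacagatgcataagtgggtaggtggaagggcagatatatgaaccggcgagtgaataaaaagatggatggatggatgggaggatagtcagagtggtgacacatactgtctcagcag
Gpx6 at chr13:21311953-21312202: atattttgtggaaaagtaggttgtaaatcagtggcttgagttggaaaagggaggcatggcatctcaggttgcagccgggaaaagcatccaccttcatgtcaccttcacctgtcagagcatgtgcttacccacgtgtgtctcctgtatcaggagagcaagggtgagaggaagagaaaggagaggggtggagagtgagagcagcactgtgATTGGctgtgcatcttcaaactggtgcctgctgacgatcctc
Scgb1c1 at chr7:140845315-140845564: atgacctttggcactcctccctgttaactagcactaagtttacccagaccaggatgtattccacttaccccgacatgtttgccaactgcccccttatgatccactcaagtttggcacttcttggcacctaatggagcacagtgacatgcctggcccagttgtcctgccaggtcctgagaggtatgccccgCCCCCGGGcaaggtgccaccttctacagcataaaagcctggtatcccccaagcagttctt
The CCCNNGGG letters were found in the windows of Bpifb6 and Scgb1c1, 199 and 60 bases before the start, and in 11.8% of all 32851 promoter windows. CCAAT letters were found in the windows of Bpifb4, with 2 matches, and Gpx6, with 1, and in 33.9% of all windows. TATAAA letters were found in none of the 4 windows and in 12.4% of all. These matches describe letters only, and neither binding nor chromatin was measured.

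The BPI-fold spots were unevenly spread over the libraries. Library 1 had 19 of 1662 kept spots (1.14%, interval 0.690% to 1.78%) and library 2 had 0 of 715 (interval 0% to 0.515%; a limit of 3 counts is 0.420%). Library 3 had 40 of 1296 (3.09%, interval 2.21% to 4.18%) and library 4 had 43 of 943 (4.56%, interval 3.32% to 6.09%). No positions or images were used, so where on the sections the spots lay was not analysed here. Median depth of the BPI-fold spots was 6894, 10956 and 8459 UMIs in libraries 1, 3 and 4, against 7921, 9009.5 and 10002 UMIs in the other spots. Barcodes name positions of the slide design, and 1408 of the 2768 kept barcodes occurred in more than 1 library. Of the 102 barcodes of BPI-fold spots, 44 were also kept in another library, and 0 were chosen in more than 1.

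The genes that made the choice are described without a test. Bpifb4, Bpifb6 and Gpx6 together had a lowest, median and highest value per BPI-fold spot of 10, 12 and 20 UMIs in library 1. In library 3 these values were 10, 26.5 and 928 UMIs, and in library 4 they were 10, 29 and 1897 UMIs. Library 1 thus stayed near the threshold, while libraries 3 and 4 reached spots with far more. In library 3, 8 spots with at least 100 UMIs of the 3 genes held 77.0% of these genes' UMIs in its BPI-fold spots, and in library 4, 12 such spots held 85.9%. The single richest spot alone held 23.7% in library 3 and 32.0% in library 4. Around the threshold, 3, 5 and 2 spots of libraries 1, 3 and 4 had exactly 10 UMIs, and 8, 5 and 5 spots just outside had 9. Library 2 had 1 spot with 9 UMIs and none above it.

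**Figure D1:**
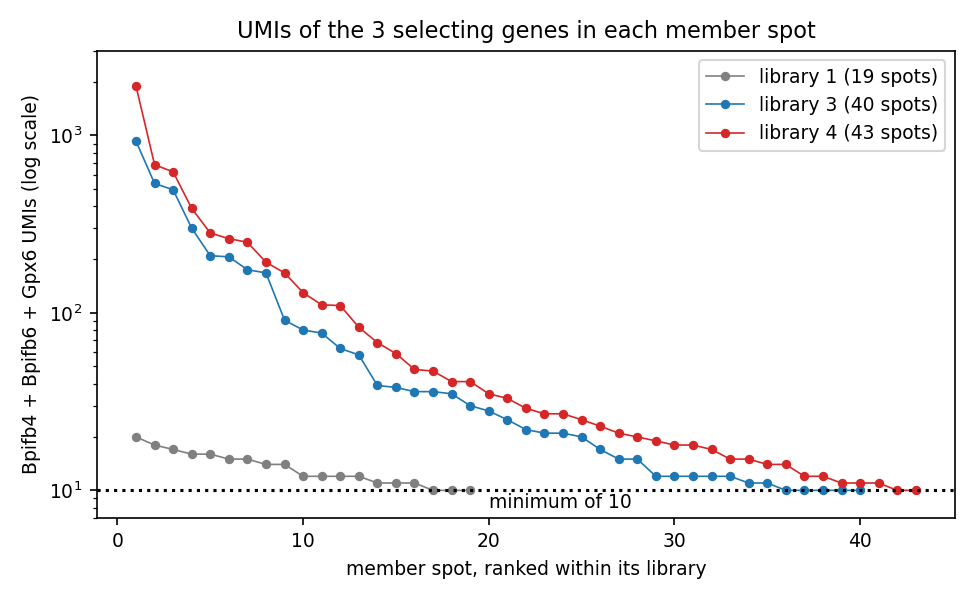
UMIs of Bpifb4, Bpifb6 and Gpx6 summed in each BPI-fold spot (log axis), ranked from the richest within libraries 1 (grey), 3 (blue) and 4 (red), with the minimum of 10 as a dotted line. The richest spots of libraries 3 and 4 hold 928 and 1897 UMIs, whereas the 19 spots of library 1 lie between 10 and 20.

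Transcripts of the 3 genes were not limited to the chosen spots. The BPI-fold spots held 26.7% of all UMIs of these genes in library 1, 80.5% in library 3 and 89.5% in library 4, with 0.981%, 3.73% and 3.90% of all UMIs. At least 1 UMI of the 3 genes was present in 17.4%, 8.81%, 37.1% and 38.8% of the other spots of libraries 1 to 4. Granule-cell spots, defined by transcripts only (at least 20 summed UMIs of granule genes and at most 2 of sensory axon genes), give a background, because bulb granule cells should lack these genes. They carried a UMI in 8.02%, 4.40%, 21.2% and 23.5% of spots, at median depths of 11284, 10187, 10227 and 9969.5 UMIs. The level of the 3 genes in them was 7.65, 5.55, 30.9 and 31.7 counts per 1000000 UMIs (CPM). An isolated UMI in a spot outside the chosen ones is therefore not read as expression. Over all spots outside, however, the level lay above this background, at 53.4, 27.4, 78.6 and 76.0 CPM in libraries 1 to 4.

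Bpifb4 was the most abundant of the 3 genes in every library with BPI-fold spots. Its level, summed over those spots, was 1020 CPM in library 1, 3476 CPM in library 3 and 7553 CPM in library 4, against 25.8, 33.9 and 35.5 CPM in the other spots. Bpifb6 stood at 445, 2156 and 4524 CPM, and Gpx6 at 498, 2753 and 3896 CPM. The mix of the 3 genes changed little with their total. In library 3, there were 1.59, 1.30 and 1.24 Bpifb4 UMIs per Gpx6 UMI in spots with 10 to 19, 20 to 99 and at least 100 UMIs, and in library 4 there were 1.72, 1.85 and 1.96. Across spots, UMIs per spot total gave a Spearman rho of Bpifb4 with Bpifb6 of 0.72 over 40 spots of library 3 and 0.88 over 43 spots of library 4. For Bpifb4 with Gpx6 it was 0.85 and 0.90. In library 1 the same correlations were 0.28 and 0.19 over 19 spots, all of them with at most 20 UMIs. Spots share a library and each pair of genes shares the spot's depth, so these coefficients are descriptions.

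Other BPI-fold genes followed only in part. RefSeq (GRCm38.p6) lists a run of BPI-fold genes on chromosome 2 in the order Bpifb2, Bpifb6, Bpifb3, Bpifb4, Bpifa6, Bpifa2, Bpifa3, Bpifa1, Bpifa5, Bpifb1, Bpifb5, Bpifb9a and Bpifb9b, with the unrelated Cdk5rap1 after Bpifb1. Bpifb3, which lies between Bpifb6 and Bpifb4, reached 216 CPM in the BPI-fold spots of library 3 and 137 CPM in those of library 4, against 10.7 and 13.9 CPM elsewhere. Its level in library 1 was 7.67 CPM, a single UMI. Bpifa1, a secreted airway protein, was at 46.0, 66.4 and 67.3 CPM in libraries 1, 3 and 4 and at 3.19, 6.22 and 3.71 CPM elsewhere. Bpifa3 had no UMI in any library, and Bpifb2 and Bpifb1 had none in the BPI-fold spots.

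Bpifb9b had the opposite pattern to Bpifb3. It reached 299 CPM in the BPI-fold spots of library 1, where 14 of 19 spots had a UMI, but 10.7 and 8.08 CPM in libraries 3 and 4, where 3 of 40 and 3 of 43 did. The other spots of library 1 were also highest in Bpifb9b, at 17.8 CPM against 0.580 and 3.38 CPM in those of libraries 3 and 4. The difference between libraries was thus not limited to the BPI-fold spots. Relative to the 3 choosing genes, library 1 had 0.152 Bpifb9b UMIs per UMI (interval 0.106 to 0.214), against 0.00128 (0.000414 to 0.00298) in library 3 and 0.000506 (0.000104 to 0.00148) in library 4. Bpifb9a, at 123, 4.28 and 2.69 CPM, had the same order, but Bpifb9a and Bpifb9b are close copies whose reads the counting could split, so their separate values are uncertain. Of the 17 BPI-fold genes on the list, 4 besides the choosing genes had at least 50 UMIs for a ratio in each library, but not the same 4. In library 1 they were Bpifb9a, Bpifb9b and Pltp, at least 2-fold higher in the BPI-fold spots, and Bpifb3 at 1.87-fold, where 11.7% of all tested genes were that much higher. In libraries 3 and 4 they were Bpifb3, Bpifa1 and Lbp, at least 2-fold higher, and Pltp at 1.71-fold and 1.25-fold, where 8.14% and 10.4% of all tested genes were that much higher.

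**Figure D2:**
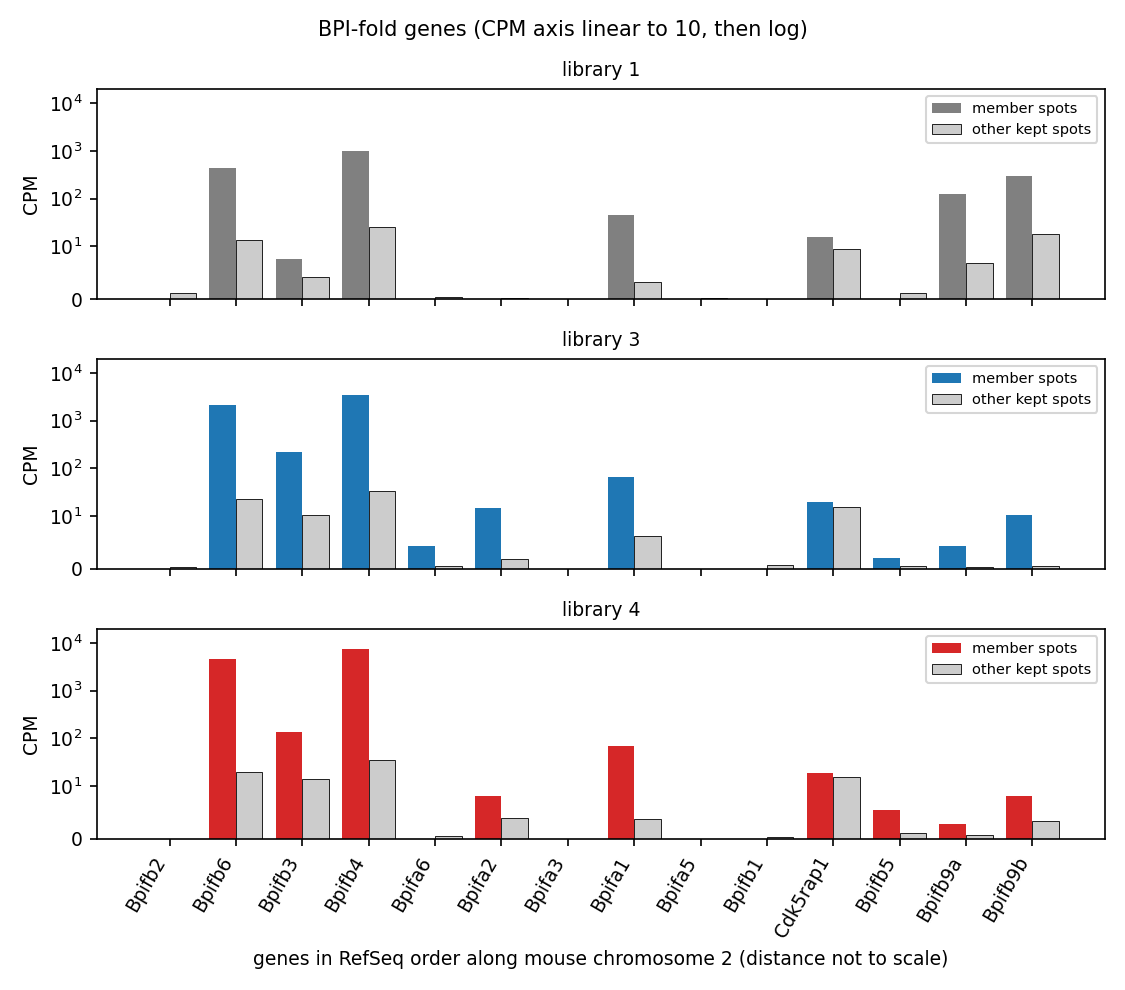
Levels of BPI-fold genes (CPM, axis linear to 10 and logarithmic above) in their RefSeq order along chromosome 2, for BPI-fold spots (coloured bars) and other kept spots (light bars) of libraries 1, 3 and 4. Bpifb6 and Bpifb4 are high in all 3 libraries by construction, since they helped to choose the spots. Bpifb3 is high in libraries 3 and 4, and Bpifb9a and Bpifb9b in library 1.

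Scgb1c1, the olfactory mucus secretoglobin, was the most abundant of the 20 leading genes. Every one of the 102 spots held it, with a lowest, median and highest value of 4, 18 and 44 UMIs in library 1, of 9, 38.5 and 1331 UMIs in library 3, and of 11, 52 and 2445 UMIs in library 4. Other spots reached at most 68, 27 and 37 UMIs, so that the groups overlapped in all 3 libraries, with 23 of 40 BPI-fold spots of library 3 and 27 of 43 of library 4 above every other spot and none of library 1. The level was 2859, 11382 and 23181 CPM against 123, 160 and 177 CPM elsewhere. That is a 23.2-fold (interval 20.7 to 26.0), 71.1-fold (67.5 to 74.9) and 131-fold difference. Without the richest spot of each library the ratio was 55.6-fold in library 3 and 98.5-fold in library 4. The BPI-fold spots held 18.7%, 73.3% and 84.1% of all Scgb1c1 UMIs of libraries 1, 3 and 4, so most of those of library 1 lay outside.

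Summed over the BPI-fold spots, the ratio of Scgb1c1 to the choosing genes was close in the 3 libraries. There were 1.46 Scgb1c1 UMIs per UMI of Bpifb4, Bpifb6 and Gpx6 in library 1 (interval 1.24 to 1.72), 1.36 in library 3 (1.30 to 1.42) and 1.45 in library 4 (1.40 to 1.50). In libraries 3 and 4 these sums rest mostly on the richest spots. Among spots with 10 to 19 UMIs of the choosing genes the ratio was 1.39 in library 1, 1.84 in library 3 and 1.88 in library 4. Over spots, rho between the 3 genes and Scgb1c1 was 0.91 in library 3 and 0.91 in library 4, and 0.33 in library 1. Omp, the cytoplasmic marker of mature olfactory sensory neurons, had a rho of 0.08, 0.29 and -0.02 in libraries 3, 4 and 1. Scgb1c1 therefore varied with the choosing genes from spot to spot in libraries 3 and 4, while Omp values were scattered at every level of the choosing genes.

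**Figure D3:**
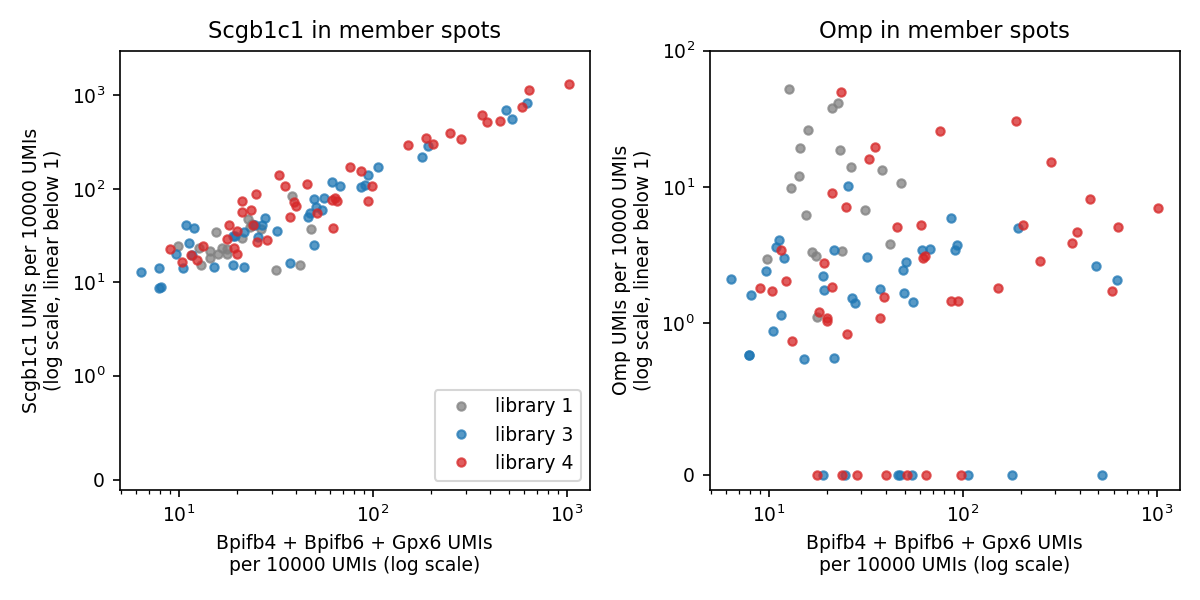
Scgb1c1 (left) and Omp (right) against the sum of Bpifb4, Bpifb6 and Gpx6 in each BPI-fold spot, all as UMIs per 10000 UMIs of the spot, in libraries 1 (grey), 3 (blue) and 4 (red). Scgb1c1 lies along a line (rho 0.91 in libraries 3 and 4), whereas Omp is scattered (rho 0.08 and 0.29).

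Ces1a was found in 61 of the 102 spots. It had 0, 0 and 1 UMIs as lowest, median and highest value in library 1, then 0, 1 and 22 in library 3 and 0, 1 and 91 in library 4. Elsewhere it was present in 1.16%, 1.91% and 2.89% of spots, with at most 3 UMIs in a spot. The ratio of levels was 26.6-fold in library 1 (interval 7.76 to 73.6), 115-fold in library 3 (76.1 to 180.5) and 218-fold in library 4. Leaving out the richest spot of library 4 lowered its ratio to 142-fold. Ces1a and the related Ces1d belong to a cluster of similar carboxylesterase genes, between which reads could be split.

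Across all genes with at least 50 UMIs, 4.97% (598 of 12024) were at least 2-fold higher in the BPI-fold spots of both libraries 3 and 4, and 6.76% (813) were at most 0.5 times as high. With every spot thinned to 2000 UMIs and the minimum for the choosing genes lowered to 3 UMIs, the first count was 164. These shares form the background for the counts below, since the spots differ from the rest of the bulb in many genes. In library 1, with 19 spots fewer than the 20 set as a minimum, 11.7% were higher and 23.6% lower. In single libraries the background was 8.14% higher and 13.1% lower in library 3, and 10.4% and 16.6% in library 4. The median log2 ratio of all tested genes was -0.07 in library 3, -0.06 in library 4 and -0.00019 in library 1.

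The 20 genes with the highest ratios, the choosing genes left out, included 8 of the xenobiotic enzyme list and 4 of the mucosal secretory and antimicrobial list. They were ranked by the lower of their ratios in libraries 3 and 4, all were at least 20.5-fold higher there, and 12 of 20 were more than 20-fold higher in library 1 too. After Ces1a came Vmo1, which encodes a vitelline membrane outer layer homologue, with 789.5, 1593 and 1971 CPM in libraries 1, 3 and 4 against 29.9, 21.1 and 24.1 CPM elsewhere. In libraries 3 and 4 that is 75.7-fold and 81.7-fold. Vmo1 UMIs ran from 2 to 11 per spot in library 1, from 0 to 154 in library 3 and from 0 to 164 in library 4. Other spots of these libraries reached 12, 10 and 5 UMIs. Those values were exceeded by 0 of 19, 15 of 40 and 28 of 43 BPI-fold spots. Slc22a20, an organic anion transporter, was 62.9-fold and 66.6-fold higher in libraries 3 and 4.

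The 4 genes on the secretory list were Scgb1c1, Muc5b, Chil6 and Wfdc2. Muc5b, a gel-forming mucin of airway glands, was at 53.7, 122 and 148 CPM in libraries 1, 3 and 4 and at 1.75, 1.33 and 2.62 CPM elsewhere. Aqp5, the water channel of gland cells, was 49.2-fold and 52.7-fold higher in libraries 3 and 4 and 14.2-fold higher in library 1. Chil6, a chitinase-like protein, was 73.0-fold and 53.3-fold higher in libraries 3 and 4, and the secreted protein Wfdc2 was 33.1-fold and 40.8-fold higher. Agr2, an endoplasmic reticulum protein needed for mucin assembly, was 28.4-fold and 60.6-fold higher. The gene 5430419D17Rik, singled out after its values were seen because it lies outside the naming rule, had still higher ratios of 141-fold and 342-fold, from 550 and 1605 CPM.

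The 8 leading genes on the list of xenobiotic and odorant metabolism included Cyp2a5 and Ces1d. Cyp2a5, an olfactory cytochrome P450, stood at 2008, 1344 and 2531 CPM in libraries 1, 3 and 4 against 111, 36.1 and 80.5 CPM elsewhere, although its reads may be shared with the near-identical Cyp2a4. Ces1d was at 115, 392 and 805 CPM against 5.16, 6.46 and 8.84 CPM. Fmo6 was 35.4-fold and 56.7-fold higher in libraries 3 and 4, and the alcohol dehydrogenase Adh1 33.6-fold and 32.7-fold. Cyp2f2, Cyp1a2 and the sulfotransferase Sult1c1 were 24.3-fold, 57.4-fold and 33.3-fold higher in library 3 and 28.0-fold, 24.2-fold and 20.5-fold higher in library 4. Of the 41 enzymes on the list, 17 of the 23 tested were at least 2-fold higher in library 3 and 18 of 24 in library 4, with none lower. Their median log2 ratio was 3.01 and 3.56. The glutathione transferase Gstp1, on the same list, stood at 1.09-fold and 0.963-fold.

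The remaining leading genes were Acsm4, an acyl-CoA synthetase family member (59.7-fold and 58.4-fold in libraries 3 and 4), Cox8b, a cytochrome oxidase subunit (77.5-fold and 48.0-fold), the paraoxonase Pon1 (28.9-fold and 31.8-fold) and the fetuin Fetub (36.0-fold and 25.4-fold). Cox8b was the leading gene with the smallest ratio in library 1, 4.08-fold.

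Cyp2g1, a P450 typical of olfactory epithelium, shows that the BPI-fold spots were not the only spots with mucosal transcripts. It was 13.0-fold, 14.4-fold and 12.2-fold higher in the BPI-fold spots of libraries 1, 3 and 4, with up to 12, 18 and 45 UMIs per spot. Other spots reached 54, 31 and 54 UMIs, more than any BPI-fold spot of their library. The spots with most Cyp2g1 therefore lay outside the rule in all 3 libraries. Cyp2a5 reached 107 UMIs outside and 37 UMIs inside in library 1, but 61 outside and 130 inside in library 3, and 81 outside and 124 inside in library 4.

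Of 23 lists with a median in both libraries 3 and 4, 9 had a median log2 ratio above 1 in both, and 1 had one below -1 in both. Of the Bowman gland list, 4 of the 5 tested genes were at least 2-fold higher in library 3 and 6 of 7 in library 4, with median log2 ratios of 5.61 and 4.70, and Scgb1c1 is among them. In this and the other lists, genes could reach the minimum for testing through their high level in the BPI-fold spots. Aqp5, at the library 3 median, had 59 UMIs in those spots and 31 elsewhere. Krt8, at the library 4 median, had 40 and 38. Neither reached that minimum in the other spots alone, so these counts and medians are descriptions only. The keratins Krt8 and Krt18, structural proteins of simple epithelia, were 27.2-fold and 14.6-fold higher in library 3, while the transcription factor Sox9 stood at 1.14-fold and 0.954-fold in libraries 3 and 4. Sustentacular cell genes had 6 of 9 and 8 of 9 higher, with medians of 3.85 and 3.71, and share Cyp2a5, Cyp2g1, Cyp1a2, Ces1d, Cbr2 and Sult1c1 with the enzyme list. For mucosal secretory and antimicrobial genes 6 of 8 were higher in each of libraries 3 and 4, with medians of 3.73 and 4.93. On that list Lcn2 and C3 went the other way in library 3, at 0.331-fold and 0.430-fold. Respiratory and ciliated epithelium genes had 0 of 3 and 1 of 3 higher, and immature sensory neuron and basal cell genes 1 of 8 in each library.

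Glutathione peroxidases other than Gpx6 differed less. Of 11 tested genes of glutathione metabolism, 2 were at least 2-fold higher in library 3 and 3 in library 4, and none lower, with medians of 0.46 and 0.60. Gpx3, the secreted plasma peroxidase, was 8.26-fold and 3.01-fold higher, and Gpx8 2.79-fold and 3.59-fold. Gpx4, the lipid hydroperoxide peroxidase, stood at 1.18-fold and 1.06-fold, and Gpx1 at 1.49-fold and 1.57-fold. Ggt1, a glutathione-cleaving ectoenzyme, was at 19.3 and 45.8 CPM in the BPI-fold spots and at 1.49 and 2.07 CPM elsewhere.

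Sensory neuron transcripts were present too, and most strongly in library 1. Omp stood at 1464, 238 and 552 CPM in the BPI-fold spots of libraries 1, 3 and 4, against 102, 26.7 and 45.3 CPM elsewhere. The axonal calcium-binding protein S100a5 was at 5810, 843 and 1591 CPM. Channel and signalling genes of odour transduction were 13.3-fold (Cnga2), 8.57-fold (Gnal) and 5.21-fold (Adcy3) higher in library 1, and 15.6-fold, 2.84-fold and 3.95-fold higher in library 4. In library 3 Gnal and Adcy3 stood at 1.66-fold and 1.49-fold, and Cnga2 had 3 UMIs in the BPI-fold spots. Of the mature sensory neuron list, 18 of 19 tested genes were at least 2-fold higher in library 1, 7 of 14 in library 3 and 16 of 18 in library 4, with medians of 3.65, 1.83 and 2.70.

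The composition of the BPI-fold spots differed between library 1 and libraries 3 and 4. Per UMI of the choosing genes, library 1 had 0.746 Omp UMIs (interval 0.615 to 0.903), against 0.0283 in library 3 and 0.0346 in library 4. It had 1.02 Cyp2a5 UMIs (0.858 to 1.22) against 0.160 and 0.158, and 0.219 Sult1c1 UMIs (0.161 to 0.293) against 0.0148 and 0.0115. Library 1 had no spot above 20 UMIs of the 3 genes, so spots with 10 to 19 give a comparison at like richness, over 18, 15 and 15 spots of libraries 1, 3 and 4. There Omp stood at 1469, 214 and 262 CPM and Cyp2a5 at 1996, 510 and 592 CPM, while Scgb1c1 stood at 2627, 2276 and 3290 CPM. Outside the BPI-fold spots, library 1 was also highest in Omp, at 102 CPM against 26.7 and 45.3 CPM in libraries 3 and 4. Cyp2a5 stood at 111, 36.1 and 80.5 CPM there. The differences in these 2 genes were thus not limited to the BPI-fold spots. Gnrh1, the neuropeptide of neurons that arise in the nose, had 49 UMIs in library 1, of which 47 came from 1 spot.

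A finer division by the UMIs of the choosing genes showed different courses for different genes. Scgb1c1 and Vmo1 climbed through every division of libraries 3 and 4, with Scgb1c1 at 86.7 CPM in spots without a UMI of the 3 genes and at 2276, 5172 and 29776 CPM in spots with 10 to 19, 20 to 99 and at least 100 UMIs of library 3. In library 4 it went from 114 CPM to 3290, 8953 and 56060 CPM. Apod, a lipid carrier of olfactory ensheathing glia and meninges, was highest in spots with 10 to 19 UMIs, at 4958 and 5312 CPM in libraries 3 and 4. It stood at 3149 and 1749 CPM in spots with at least 100. Ptgds, the prostaglandin D synthase of the meninges, went from 18826 and 24122 CPM to 7713 and 8625 CPM over the same step, and Apoe from 14337 and 16722 CPM to 8498 and 7754 CPM. Markers of blood cells climbed as well in library 3. There Hbb-bs, a beta-globin of red blood cells, went from 411 CPM in spots without a UMI of the 3 genes to 2545, 5418 and 11061 CPM in the 3 upper divisions, and S100a8, a neutrophil protein, from 23.2 CPM to 193, 406 and 896 CPM. In library 4 Hbb-bs stood at 3806, 3163 and 2208 CPM in those divisions and S100a8 at 220, 158 and 309 CPM. The part of blood in these results was not tested. Aqp5 and Muc5b were concentrated in the richest spots, at 296 CPM each in library 3 and at 538 and 348 CPM in library 4.

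**Figure D4:**
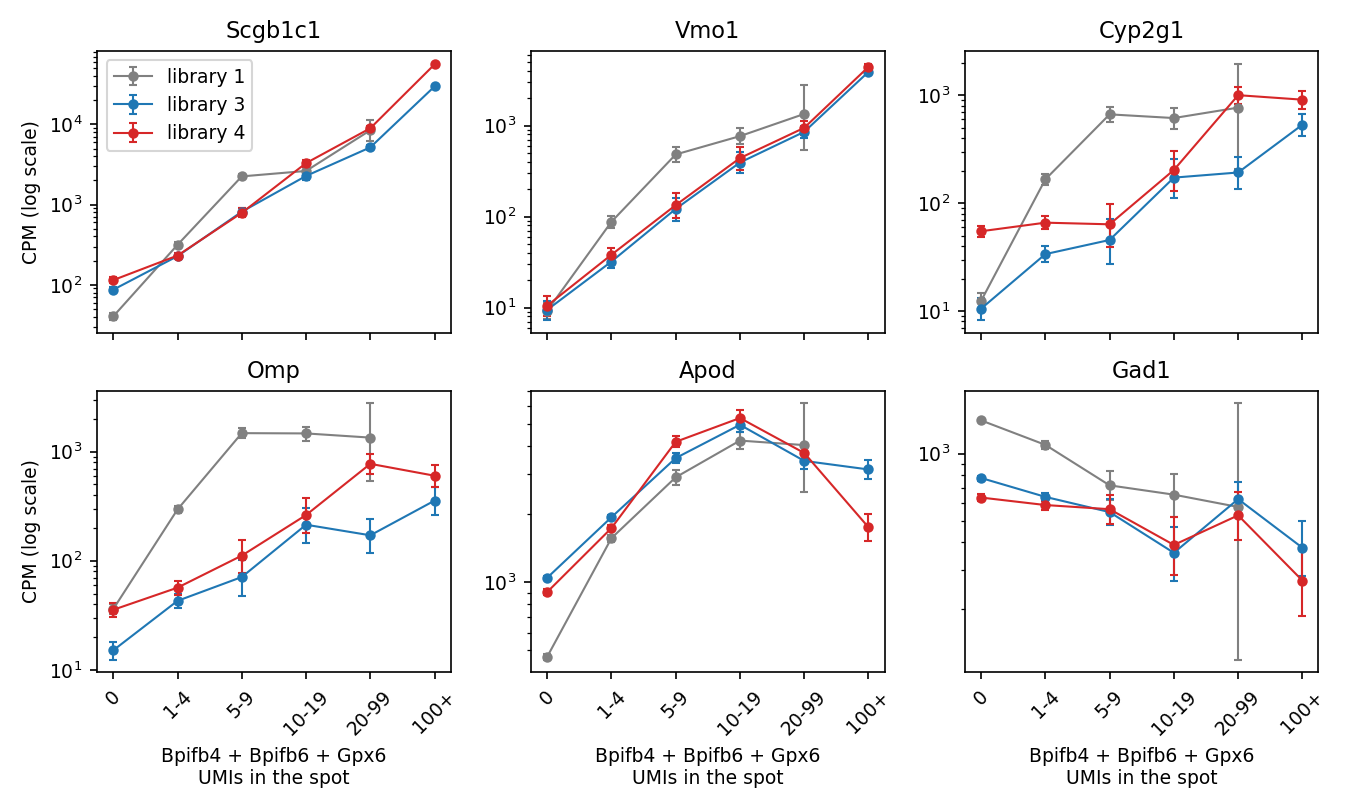
Levels of 6 genes (CPM, log axes, bars are exact Poisson intervals) in kept spots divided by their summed Bpifb4, Bpifb6 and Gpx6 UMIs, in libraries 1 (grey), 3 (blue) and 4 (red). Scgb1c1 and Vmo1 climb to the richest spots, Apod peaks at 10 to 19 UMIs in libraries 3 and 4 (4958 and 5312 CPM), and Gad1 is lower in the richest spots than in spots without these UMIs.

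Bulb transcripts remained in the BPI-fold spots. Gad1, which makes GABA in bulb interneurons, was found in 16 of 19, 35 of 40 and 37 of 43 spots of libraries 1, 3 and 4, at 652, 471 and 396 CPM against 1352, 722 and 617 CPM elsewhere. Even in spots with at least 100 UMIs of the choosing genes it stood at 378 CPM in library 3 and 269 CPM in library 4. Mitral and tufted cell genes were lower, 4 of 7 at most 0.5 times as high in each of libraries 3 and 4, with median log2 ratios of -1.36 and -1.16. Slc17a7, the vesicular glutamate transporter of these projection neurons, was at 0.298-fold and 0.278-fold. Among the 10 genes with the lowest ratios in libraries 3 and 4 were Lnx1, Pnma2, Doc2a, Enc1, Rnf112, Fam189a1, Lamp5, Krt12 and Cnr1. Enc1, a neuronal actin-binding protein, went from 247 to 36.4 CPM in library 3 and from 298 to 51.2 CPM in library 4. In library 1 Enc1, Cnr1 and Pnma2 were not lower, at 1.73-fold, 2.31-fold and 1.10-fold on 2, 6 and 3 UMIs. The others named here stood at 0.213-fold or lower there, but each on 0 or 1 UMI in the BPI-fold spots. Upper limits of their intervals ran from 0.998 (Lamp5) to 2.22 (Doc2a), so whether they were lower in library 1 is uncertain. Enc1 was at only 8.88 CPM in the other spots of library 1, so its low ratio was not shared by all libraries. Beside the mucosal genes that the label names, the spots thus held bulb RNA.

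Markers of other cell types moved with the choice, and their part in the results was not tested. Olfactory ensheathing glia genes, which wrap sensory axons, had 4 and 5 of 8 tested genes at least 2-fold higher in libraries 3 and 4. Their summed level was 6020 and 5859 CPM in the BPI-fold spots and 2612 and 2579 CPM elsewhere, and 1 of 10 listed genes was at 0 in the BPI-fold spots of each. For leptomeninges, the soft covering of the brain, 5 and 9 of 10 genes were higher, at 14858 and 17052 CPM against 8120 and 5703 CPM, with none at 0. Genes of bone, cartilage and lamina propria had 7 and 6 of 9 higher, with Col1a1 at 516 and 442 CPM and the osteoblast gene Bglap at 92.0 and 83.5 CPM, and none of the 11 at 0. Red blood cell genes had 4 of 4 higher in each library, at 12210 and 5687 CPM against 1061 and 1129 CPM. The neutrophil gene S100a8 was at 482 and 229 CPM in libraries 3 and 4 and at 0 in the BPI-fold spots of library 1. Skeletal muscle genes summed to 25.7 and 24.2 CPM against 45.9 and 47.0 CPM elsewhere, and macrophage and microglia genes had 2 of 12 higher in each library. The mitochondrial share of UMIs was 9.35%, 7.30% and 6.95% in the BPI-fold spots and 8.93%, 7.34% and 7.48% in the others.

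**Figure D5:**
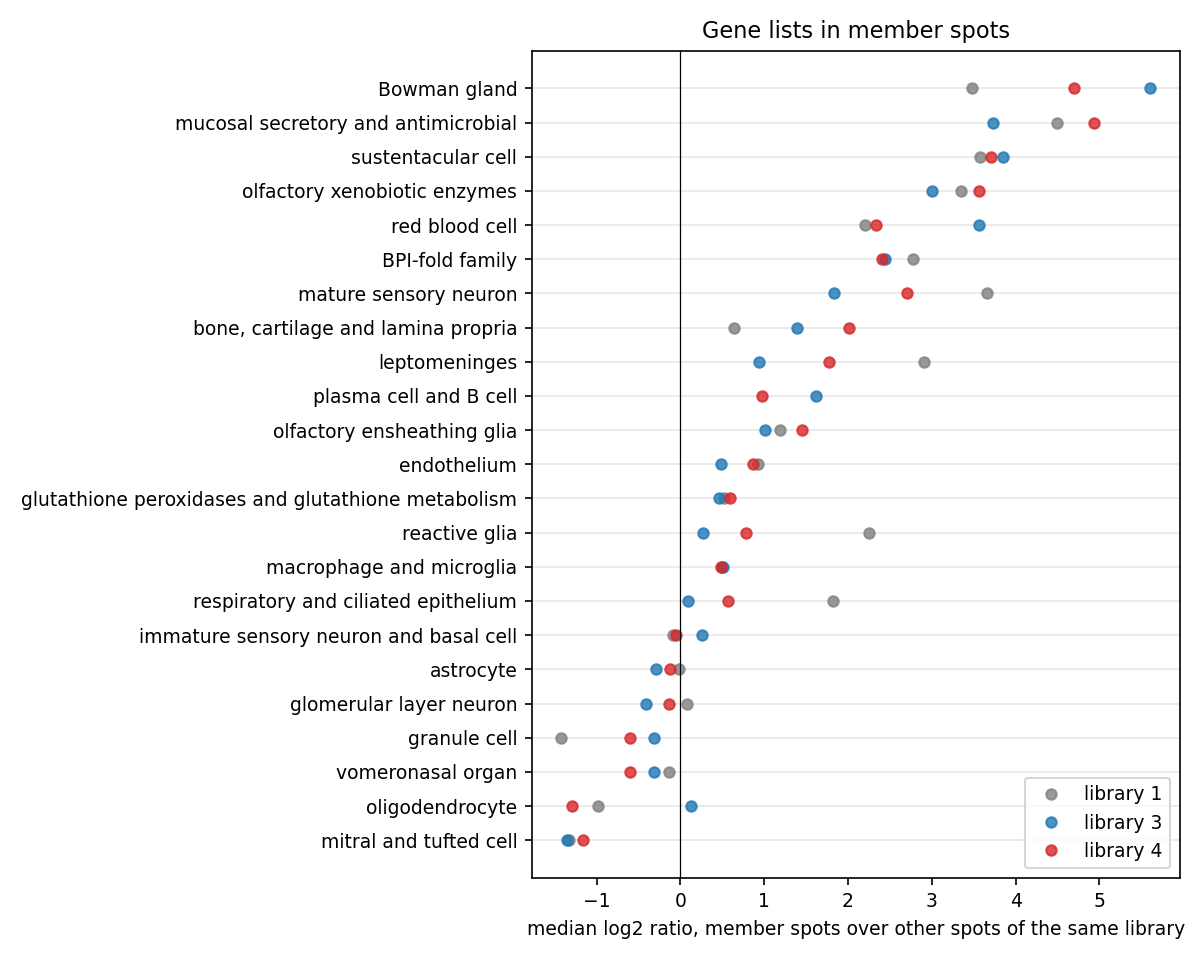
Median log2 ratio of each gene list, BPI-fold spots over the other kept spots of the same library, in libraries 1 (grey), 3 (blue) and 4 (red). Bowman gland, secretory, sustentacular and xenobiotic lists lie between 3.01 and 5.61 in libraries 3 and 4, and mitral and tufted cell genes below 0. Genes could enter these medians through their high level in the BPI-fold spots.

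The BPI-fold spots were next compared with sensory axon spots. These were the 243, 24 and 53 spots of libraries 1, 3 and 4 outside the BPI-fold spots with at least 20 summed UMIs of Omp, S100a5 and Gng13. Of the BPI-fold spots, 84.2%, 42.5% and 48.8% met that criterion themselves. The sensory axon spots also held mucosal transcripts, so the comparison is not one of mucosa with bulb. Their Cyp2a5 level was 646, 386 and 594 CPM, against 111, 36.1 and 80.5 CPM in all spots outside the BPI-fold spots. In library 1, 4.04% of all tested genes were at least 2-fold higher in the BPI-fold spots and 10.4% at most 0.5 times as high. In both libraries 3 and 4, 1.54% of 2920 tested genes (45) were at least 2-fold higher in the BPI-fold spots and 0.342% (10) at most 0.5 times as high. Scgb1c1 was still 21.4-fold and 39.7-fold higher, Vmo1 38.2-fold and 21.8-fold, and Ces1a 19.3-fold and 59.4-fold. Of the 20 leading genes, 19 stood at least 2-fold higher in both libraries. That count is a description only, because the genes were picked for their high ratios in these same BPI-fold spots. They had no minimum in the spots compared, unlike the genes behind the 1.54%. Muc5b and Cox8b, for example, had 0 and 1 UMIs in the sensory axon spots of library 3.

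Other groups stood closer to the sensory axon spots. In single libraries the shares of all genes called higher were 2.95% in library 3 and 2.50% in library 4, and called lower 3.38% and 2.26%. None of 6 tested ensheathing glia genes was at least 2-fold higher in either, with median log2 ratios of -0.37 and -0.22. Sensory neuron genes had 0 of 5 and 3 of 10 higher, with medians of -0.34 and 0.74, although Omp, S100a5 and Gng13 defined the spots compared. Cyp2g1 was at 1.37-fold and 1.61-fold. Bowman gland genes kept 3 of 3 and 5 of 5 higher (medians 4.42 and 3.28), xenobiotic enzymes 10 of 18 and 11 of 20 (1.41 and 1.29), and red blood cell genes 4 of 4 in each (2.64 and 1.69). Here too, genes could be tested through their level in the BPI-fold spots. The Bowman gland gene Aqp5, for example, had only 3 and 6 UMIs in the sensory axon spots of libraries 3 and 4.

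The spots richest in odorant-binding protein transcripts were few and confined to library 1. Obp1a and Obp1b, lipocalins of nasal glands that carry odorants, reached 10 summed UMIs in 73 spots of library 1 and in none of libraries 2 to 4. Of the 73, 1 was a BPI-fold spot (1.37%, where BPI-fold spots were 1.14% of all kept spots of that library), the richest of library 1 with 20 UMIs of the choosing genes. Obp1a stood at 353 CPM in the BPI-fold spots of library 1 and at 367 CPM in its other spots, and at 10.7 and 10.8 CPM in the BPI-fold spots of libraries 3 and 4, against 0.829 and 1.42 CPM in their other spots. Those levels rest on 5 BPI-fold spots of library 3 and 4 of library 4 with a UMI.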

How the data were processed

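The deposited values are whole-number UMI counts per gene and spot in 1 pooled matrix (32285 genes, 4713 spots, 40624119 UMIs). Per the file headers, the authors used Space Ranger 1.3.1, and the submitters' processing notes name GRCm39, although the number of genes leaves the build uncertain. Promoters and gene order come from RefSeq tables of GRCm38.p6, matched by symbol, and no coordinates of different builds were mixed. Spots under 500 UMIs were left out. Levels are UMIs summed over spots per 1000000 UMIs (CPM), with exact Poisson intervals, exact conditional binomial intervals for ratios and Clopper-Pearson intervals for shares of spots (Python 3.11.15, scipy 1.17.1). Counts over all tested genes and over lists used genes with at least 50 UMIs in the spots compared, called at 2-fold or 0.5. UMIs of the BPI-fold spots counted towards that minimum, so a gene could be tested through its high level there. Ratios of single genes, and the count over the 20 leading genes, had no such minimum in the spots compared. List medians are over log2 ratios with a prior count of 0.5, for at least 3 tested genes. The planned minimum was 20 spots per library, so values of library 1 (19 spots) are an addition. Named genes are list members with at least 20 UMIs in the chosen spots, the 20 highest (at least 100 UMIs there) and the 10 lowest ratios (at least 1000 UMIs in kept spots), without mitochondrial, ribosomal or unnamed models. Members and lists were chosen with earlier results of these data known. The control and mutant mouse were not compared, since barcode numbers match no label. No spot was treated as a doublet, since spots hold several cells. The script for ratios was checked on simulated counts. The values of some genes named by this rule are not reported here. Lcn14 and Trpc2 have no row under these symbols.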

Additional observations from a re-analysis of the deposited data

Results flagged for a closer look

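Spots below the depth minimum were not part of any comparison. The 97 such spots held 4 UMIs of Bpifb4, Bpifb6 and Gpx6, above the 3 UMIs that a count of 0 allows. All 4 came from 2 spots of library 4, whose 4 shallow spots had 1308 UMIs in all, and the shallow spots of libraries 1, 2 and 3 had none. They were listed because the signal lies in data that the comparisons left out.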

How the results depend on the processing

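No paired analysis was possible because the barcode numbers carry no replicate labels and no significance test was run. The shares of BPI-fold spots followed the threshold. With at least 5 UMIs they were 3.73%, 1.12%, 6.02% and 7.95% in libraries 1 to 4, and with at least 20 they were 0.0602% in library 1, 1.93% in library 3 and 2.97% in library 4. With at least 10 per 10000 UMIs, libraries 1 and 2 had 3.43% and 0.699%, and thinned to 2000 UMIs, with a minimum of 3 UMIs of the choosing genes, library 1 had 3.08%. Gpx6 alone gave 0% in library 1, 1.39% in library 3 and 2.12% in library 4, and Bpifb4 with Bpifb6 gave 2.08% in library 3.

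Counts of genes moved with the depth asked of a gene and with the minimum for the choosing genes. In libraries 3, 4 and both, genes at least 2-fold higher numbered 395, 420 and 219 with at least 200 UMIs per gene, and 532, 413 and 164 when thinned. Lower genes numbered 998 in library 3 and 1305 in library 4 with at least 200 UMIs per gene, and 821, 1201 and 360 (libraries 3, 4 and both) with the minimum of 5. In both libraries more genes were lower than higher in the reported setting (813 and 598), and fewer with the minimum of 5 (360 and 508). Counts in both libraries became 1029 to 1260 higher and 1657 to 2004 lower with 1 library left out. Against sensory axon spots, 87 genes were higher with at least 20 UMIs per gene and 11 with at least 200, and lower genes numbered 49 and 2. Lower genes there numbered 4 and 26 with minimums of 5 and 20, 20 for Bpifb4 with Bpifb6 and 28 for Gpx6 alone. Lists with a median above 1 log2 unit in both libraries fell from 9 of 23 to 5 when thinned, where fewer genes were tested. Odorant-binding protein spots among the BPI-fold spots of library 1 numbered 2 per 10000 UMIs, 0 for Gpx6 alone and 0 without the richest spot, an alternative chosen after seeing the data. Apart from construction, the cause of these shifts was not tested. No list median above 1 or below -1 log2 unit changed sign under these alternatives. The 20 leading genes stayed at least 8.38-fold higher in all 520 values, and 568 of 626 list medians moved by at most 0.5. Libraries are not replicates, so counting intervals understate the error.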
